A study of Mus musculus with 64 samples.

Results

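The transient 2-cell peak genes are 53 genes, out of 3089 that the table names by a probe with a single gene symbol, whose signal was at least 1 log2 unit higher in 2-cell embryos than in fertilized eggs and at least 1 log2 unit lower again in 4-cell embryos. They were chosen by these measured differences between group means. Of 22575 probes, 313 met both steps and 55 of those carried 1 symbol. Zfp704 and Rpia were then dropped because symbols of the families Zfp, Slc, Rp, Eif, Ddx and Rbm, and 5 single genes, were not taken. The rise and the fall that chose the genes are therefore given as a description, without a test.

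The study hybridised mouse egg and embryo RNA to 64 arrays of 2 colours, against a common reference in the other channel. The stage set gives 4 arrays to each of 7 stages (unfertilized egg, fertilized egg, 2-cell embryo, 4-cell embryo, 8-cell embryo, morula, blastocyst), with a reference named Universal Control. The treatment set holds 12 groups of 3 arrays with a reference named Universal Reference: untreated controls of the early 1-cell stage (21 h), the late 1-cell stage (32 h), the early 2-cell stage (43 h) and the late 2-cell stage (54 h), 3 AM groups that match the last 3 of these times, AC and DMSO groups for the middle times (32 and 43 h), and a single CHX group (43 h). Strain, dose, solvent pairing, number of embryos and the start of the hours are not in the labels. The abbreviations are not spelled out there. From general knowledge of such studies they are read as α-amanitin, which blocks RNA polymerase II, aphidicolin, which blocks DNA replication, cycloheximide, which blocks translation, and the solvent dimethyl sulfoxide. All values are log2 of embryo over reference, centred so that the middle probe of an array is 0, and above 0 the embryo holds more of the RNA than the reference. That direction is likely but not settled. Its basis is that all 6 probes of 5 oocyte genes (Zp2, Bmp15, Btg4, Kit and Dppa3) were higher at the unfertilized egg stage than in blastocysts. With the opposite sign, rises would be falls and falls rises. Nothing in the labels says that replicate arrays came from separate collections, so the spread between them may be technical.

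The fertilized mouse egg first runs on RNA and protein stored during oocyte growth. The embryonic genome is switched on in a minor wave at the 1-cell stage and a major wave at the 2-cell stage, while maternal RNA is degraded. Some genes and retroelements are known to be read only for a short window around the 2-cell stage, and such genes, for example those of the Obox and Zscan4 families, are the usual markers of that window. The polymerase inhibitor is the classical means of telling new transcripts from maternal ones. A transcript made by the embryo should fail to accumulate when polymerase II is blocked.

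Promoter sequences from RefSeq (GRCm38.p6) are shown for 5 members named in the treatment results below, and not for others called there, such as Plxna3. Each is 300 bases around the annotated gene start, 5′ to 3′ on the gene's strand, and capitals mark matches to the searched motifs on either strand (GGGCGG, read as CCGCCC on the other strand, and CCAAT, read as ATTGG). The Tmtc3 window is chr10:100487298-100487597 on the minus strand, Mindy3 is chr2:12419411-12419710 on the minus strand, Ubr4 is chr4:139380409-139380708 on the plus strand, Ppig is chr2:69722838-69723137 on the plus strand and Ppp1r14c is chr10:3365900-3366199 on the plus strand.
Tmtc3: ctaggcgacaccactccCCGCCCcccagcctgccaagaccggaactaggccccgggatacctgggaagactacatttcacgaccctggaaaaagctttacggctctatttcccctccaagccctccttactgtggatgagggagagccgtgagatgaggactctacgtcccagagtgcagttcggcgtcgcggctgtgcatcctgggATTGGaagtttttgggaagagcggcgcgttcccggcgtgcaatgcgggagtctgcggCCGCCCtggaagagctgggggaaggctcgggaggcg
Mindy3: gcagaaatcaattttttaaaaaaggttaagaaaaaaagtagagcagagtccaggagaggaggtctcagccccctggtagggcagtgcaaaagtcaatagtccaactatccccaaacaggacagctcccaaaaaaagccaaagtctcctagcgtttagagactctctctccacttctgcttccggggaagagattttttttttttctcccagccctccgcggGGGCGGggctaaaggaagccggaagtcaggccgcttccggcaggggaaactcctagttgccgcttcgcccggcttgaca
Ubr4: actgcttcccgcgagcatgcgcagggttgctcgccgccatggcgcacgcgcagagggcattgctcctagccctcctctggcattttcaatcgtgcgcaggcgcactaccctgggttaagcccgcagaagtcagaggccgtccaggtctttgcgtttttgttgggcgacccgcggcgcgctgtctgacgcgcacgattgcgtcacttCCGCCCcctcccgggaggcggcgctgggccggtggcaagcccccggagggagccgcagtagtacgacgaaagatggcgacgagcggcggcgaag
Ppig: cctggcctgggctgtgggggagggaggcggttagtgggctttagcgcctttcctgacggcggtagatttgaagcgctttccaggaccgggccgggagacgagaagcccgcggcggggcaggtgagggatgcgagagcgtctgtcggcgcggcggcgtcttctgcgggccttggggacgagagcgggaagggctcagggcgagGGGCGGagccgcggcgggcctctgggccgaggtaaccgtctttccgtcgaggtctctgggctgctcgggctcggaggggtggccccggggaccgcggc
Ppp1r14c: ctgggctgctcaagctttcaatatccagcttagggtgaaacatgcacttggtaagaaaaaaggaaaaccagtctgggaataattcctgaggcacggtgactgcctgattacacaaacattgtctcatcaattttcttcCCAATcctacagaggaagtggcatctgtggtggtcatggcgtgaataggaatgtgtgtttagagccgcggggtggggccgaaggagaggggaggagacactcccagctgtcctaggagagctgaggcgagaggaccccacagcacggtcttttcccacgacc

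A promoter was found for 43 of the 53 members. GGGCGG, the letters bound by Sp/KLF factors, was present in 72.1% of the members' promoters and in 35.6% of 27025 promoters of the same length. The GC content had a median of 66.0% among members and 52.7% over all promoters, so the motif and the base composition move together and neither was tested. The comparison promoters were not limited to the 3089 genes with a 1-symbol probe, so they include genes that the rule could not choose. CCAAT was in 27.9% of members and 37.8% of all, TATAAA in 9.30% and 14.1%, and AGGTCA in 11.6% and 16.2%. TAATCC, an OBOX or OTX type core, was in 4.65% and 7.23%, and the heat shock element core GAANNTTC was in 4.65% and 7.97%. Of the windows printed above, 4 hold GGGCGG or its reverse and Ppp1r14c holds CCAAT alone.

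In the stage set the members rose by a median of 1.42 log2 units from fertilized egg to 2-cell (from 1.03 to 2.00) and then changed by a median of -1.08 to the 4-cell stage (from -2.03 to -1.0). The 2-cell mean was the highest of the 7 stage means for 52 of 53. Before that, 49 members were higher in fertilized than in unfertilized eggs, by a median of 0.51, a step outside the rule that shares its fertilized egg arrays. The share over all probes was not counted for this step. The fourth unfertilized egg array and all fertilized egg arrays lie in different parts of the stage arrays, which are described with the morulae. Its member median was 0.28, against 0.66 to 0.87 on the other unfertilized egg arrays. From the 4-cell to the 8-cell arrays 48 members were lower, by a median of -0.94, but this step reuses the 4-cell arrays of the rule, and all 4-cell arrays lie in 1 of the 2 parts of the stage arrays described with the morulae and all 8-cell arrays in the other, so stage and part cannot be told apart. Just inside the thresholds lay Aftph (1.03 and -1.0085), Grk6 (1.18 and -1.0063) and Ppp1r14c (1.75 and -1.0014). Just outside lay Rara (1.12 and -0.9998), Srp54b (1.33 and -0.9966) and Cd55b (1.75 and -0.9958).

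The peak rested unevenly on the 4 arrays of the 2-cell stage. The members' median was 3.14, 3.53, 2.63 and 1.5 on those arrays. It was 1.53, 0.94, 1.22 and 1.76 on the fertilized egg arrays and 1.00, 2.01, 1.92 and 1.49 on the 4-cell arrays. The fourth 2-cell array thus lay within the range of both neighbouring stages, and it was the lowest of its group for 31 of 53 members, while the second was the highest for 35. All 4 arrays at 2-cell were above all fertilized egg arrays for 23 members, above all 4-cell arrays for 16 and above both for 12. The rule chose the members on these same arrays, and the share over all probes was not counted. The interquartile range of all probes on the 2-cell arrays was 2.26, 2.15, 1.75 and 1.38 log2 units. The array with the lowest members' median was thus also the narrowest, and the part of this spread in the peak was not tested. When the arrays were put on a common distribution by quantile normalization, 24 genes met the rule and 15 of them were among the 53.

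**Figure D1:**
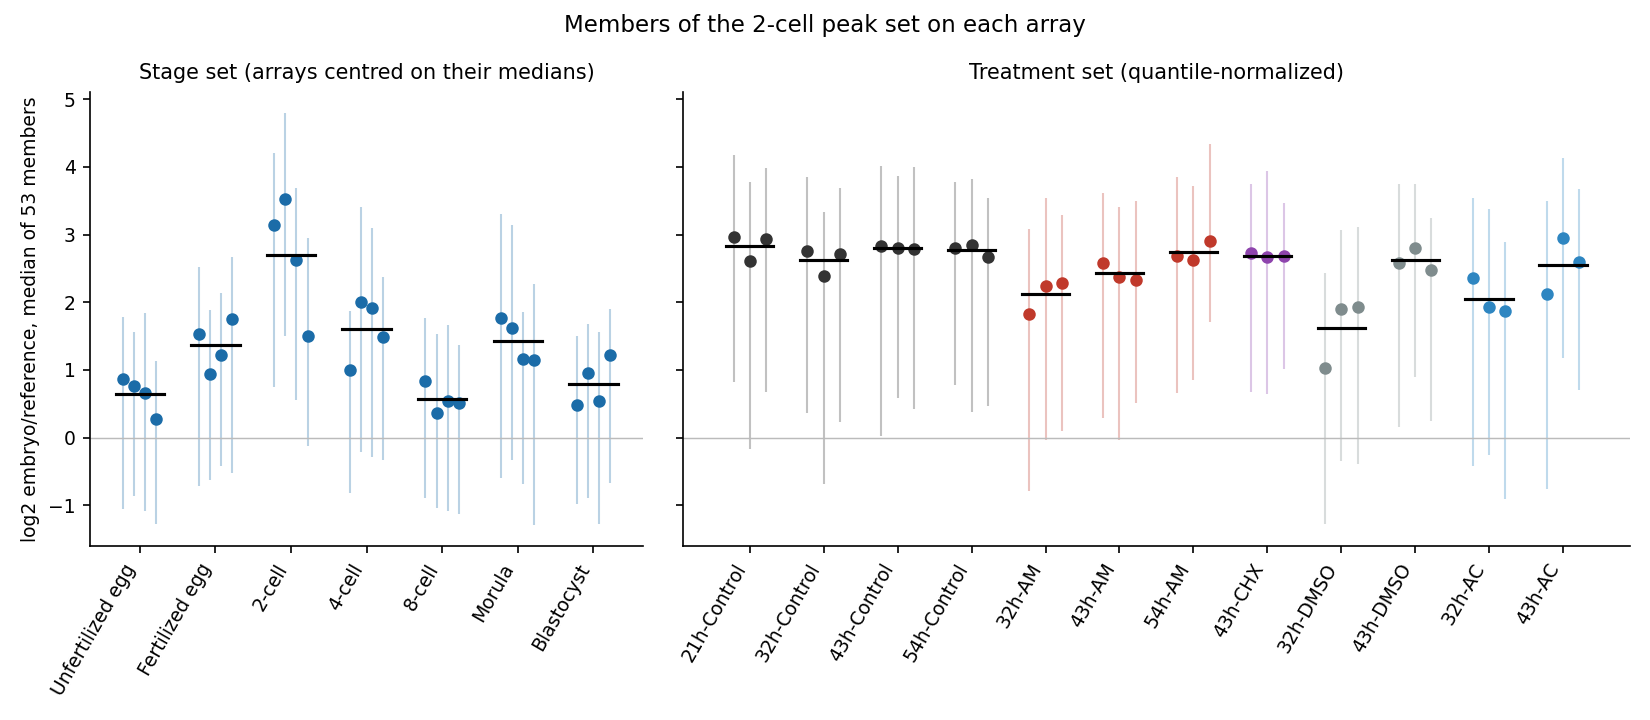
Median of the 53 member genes on each array (log2 embryo over reference), by group, for the stage set and the treatment set; each dot is an array, thin vertical lines run from the lower to the upper quartile of the members and thick horizontal lines are group means. The 2-cell arrays lie between 1.5 and 3.53, and the untreated controls of the treatment set lie between 2.39 and 2.97 at every time. The sets differ in reference and in scaling, so their levels cannot be compared with each other.

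Leaving out single arrays changed the membership widely. Without the second 2-cell array 25 genes met the rule, 15 of them members, and without the first it was 46 with 24 members. Without the fourth 2-cell array 178 genes met it, 49 of them members. Among the 4-cell arrays, leaving out the first gave 21 genes and the fourth 37, whereas leaving out the second gave 114 and the third 94. Dennd1b alone met the rule in the values as deposited, after quantile normalization and in all 12 fits without an array, and Ubr4 met it in all 12 but not after quantile normalization.

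Dennd1b, an activator of Rab35 in membrane traffic, read 0.01, 0.15, -0.80 and -0.45 on the 2-cell arrays. It read -1.26, -1.70, -2.0 and -1.17 in fertilized eggs and -0.88, -1.51, -1.55 and -2.42 in 4-cell embryos. Its 2-cell values were all above those of both neighbours. Ubr4, a ubiquitin ligase of the N-degron pathway, has the member probe with the largest peak. That probe read 3.37, 4.48, 3.19 and 1.97 at 2-cell, against 2.17, 1.88, 1.35 and 1.30 before and 1.07, 1.68, 2.26 and 2.22 after. The fourth of its 2-cell arrays overlapped both. Ppig, a nuclear cyclophilin linked to splicing, read 0.57, 4.93, 3.53 and -0.13 at 2-cell, so its mean of 2.23 stands for a pair of high and a pair of low arrays.

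The table holds 47 further 1-symbol probes for 27 of the member genes; a probe that met both steps would itself be a member probe. Their median rise was 0.24 and their median fall -0.13. A rise of at least 1 was seen for 7, a change of -1 or lower over the same step for 8, and 15 had both signs of the peak. Some came close to the thresholds: Myl9 (0.86 and -0.99), Cdk6 (0.79 and -0.98) and Auts2 (0.77 and -0.96) each had another probe with a smaller peak. The remaining Myl9 probes had no peak, at -0.97 and 2.37 and at 0.46 and 0.30. Those of Auts2 disagreed, at 0.32 and -0.56, 0.54 and 0.05, and -0.0002 and 0.51. Those of Cdk6 rose and fell by less, at 0.56 and -0.96 and at 0.21 and -0.64. The other Tmtc3 probe went from fertilized egg to 2-cell by -1.39 and the other Mindy3 probe by -3.00, against 1.04 and 1.25 for the member probes. The other probes of Ubr4 had no peak, at -0.29 and then 1.30 and at -0.19 and then 0.28. The other Ppig probe rose by 1.22 and then by a further 1.05. For Sptbn1, a spectrin of the membrane skeleton, the member probe rose by 1.08 in the stage set. In the treatment controls from 32 to 54 h it was 1.19 higher, short of the threshold, while 2 other probes of that gene changed by -3.18 and -2.11 (limma adjusted p = 3.6e-07 and 0.00033) and a further 1 by 0.87 (adjusted p = 0.021). Probe sequences were not used here, so transcript forms behind these probes were not told apart, and 26 members have a single probe.

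**Figure D2:**
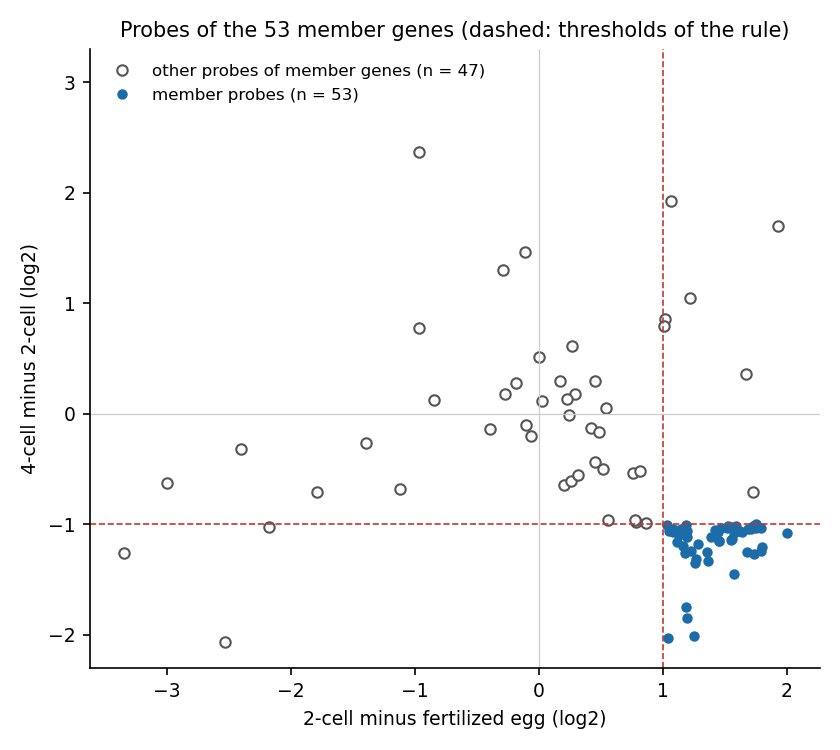
Change from fertilized egg to 2-cell against change from 2-cell to 4-cell, in log2 units, for the 53 member probes (filled) and the 47 other probes of the same genes (open); dashed lines are the thresholds of the rule. The rule places member probes in the lower right corner and keeps the other probes out of it, and 15 of the other probes rise and then fall without passing both thresholds.

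By role the members are mixed. Signalling holds 10 of them, among them Csf1, the macrophage growth factor, with a rise of 1.2 and a fall of -1.85, the orexin receptor Hcrtr2 with 1.68 and -1.25, the natural killer receptor Cd244a with 1.16 and -1.19, and the semaphorin receptor Plxna3 with 1.11 and -1.16. Csf1 peaked at a low ratio to the reference. Its 2-cell values were -2.56, -2.97, -0.98 and -1.22, below the middle probe of the array, which does not give its amount. Transcription and chromatin holds 8 members. Supt4a, a subunit of the elongation factor DSIF, rose by 1.23 and fell by 1.24, Pbrm1, a subunit of the PBAF remodeller, rose by 1.58 and fell by 1.08, and Chd3, of the NuRD complex, rose by 1.45 and fell by 1.07. Airn, the imprinted non-coding RNA antisense to Igf2r, rose by 1.15 and fell by 1.04.

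RNA processing and translation is represented by 4 genes: Ppig, the export adaptor Alyref (1.28 and -1.18), the mitochondrial tryptophanyl-tRNA synthetase Wars2 (1.18 and -1.26) and Cpeb1 (1.42 and -1.05), which controls poly(A) tails of stored oocyte messages. Membrane traffic holds 7, with Dennd1b and Rep15 (1.26 and -1.35), both partners of Rab proteins. The cytoskeleton holds 5, with the myosin light chain Myl9 (1.37 and -1.33) and Myo1d (1.39 and -1.12). Ubiquitin-linked genes are Ubr4 (1.58 and -1.45), the deubiquitinase Mindy3 (1.25 and -2.02) and the ligase adaptor Asb1 (1.46 and -1.15). The remaining members include 6 metabolic genes such as the ethanolamine kinase Etnk1 (1.80 and -1.20) and the lipid transfer protein Pitpna (1.55 and -1.13), 6 membrane and cell surface genes such as App (1.55 and -1.14), the cell cycle kinase Cdk6 (1.19 and -1.75), the SUMO ligase Nsmce2 (1.79 and -1.24), the chaperone Ppib (1.45 and -1.15) and Pcnp (1.74 and -1.27). The median rise by role lay between 1.2 for the cytoskeleton and 1.62 for metabolism among roles of over 2 members.

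The treatment controls ask whether the same genes rise across the first cleavage in arrays that the rule did not use. They did not do so past the test, with Ppp1r14c as the exception. From 32 h (late 1-cell) to 43 h (early 2-cell) 0 of 53 members were called higher or lower by limma at an adjusted p under 0.05 over all probes, where the background was 0.399% of probes higher and 3.2% lower. At an unadjusted p under 0.05 there were 2 members, and 2783 of 22575 probes. The members' median difference was 0.38, against 0.05 over all probes, and 48 differences were above 0. From 43 to 54 h (late 2-cell) 0 were called, against 2.31% of probes higher and 1.78% lower, with a median of -0.02.

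From 32 to 54 h 1 member was called higher and 0 lower, where 11.3% of probes were called higher and 11.6% lower. The median member difference was 0.28, against 0.09 over all probes. An unadjusted p of 0.05 was passed by 9 members, and by 7671 of 22575 probes. The upper 95% bound of the difference was below 1 log2 unit for 25 of 53 members. The call count depended on the fit. After each array was centred on its own median 3 members were called, and the members' median was 0.77. When the spread was estimated from these 6 arrays alone 13 were called. The shares of all probes called in these fits were not counted. Against the 21 h controls, which were compared only after the other results were known, 0 members were called at 32 h, where 0.182% of probes were higher and 0.133% lower. At 54 h 1 was called higher, against 6.16% higher and 6.97% lower, and 0 with a replicate block, in the values as deposited, after median centring, without probes at a limit and in every fit without 1 array except the one without 21 h control replicate 3. The members' median difference was -0.45 and -0.09 in these comparisons. For the 15 members that also met the rule after quantile normalization the median from 32 to 54 h was 0.94, with 0 called. Of these, Dennd1b read -1.46, -1.66 and -1.51 at 32 h and -0.92, -0.99 and -0.82 at 54 h, without overlap, and its difference of 0.64 ± 0.41 (SE) was not called (limma adjusted p = 0.3). Of the 4 control times, 40 of 53 members were lowest at 32 h. The highest was 21 h for 19 members, 54 h for 18, 43 h for 13 and 32 h for 3. For the lowest and the highest control time the shares over all probes were not counted. These comparisons share control arrays. The only cumulus cell marker that the table names, Inhbb, was between -3.20 and -2.28 in the controls. This is a ratio to the reference, under that of the middle probe, and does not give its amount.

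Ppp1r14c, an inhibitor of protein phosphatase 1, read 5.20, 5.67 and 5.41 at 21 h, 5.63, 5.20 and 5.50 at 32 h, 5.23, 5.95 and 5.88 at 43 h. At 54 h it read 6.54, 6.55 and 6.39. The 54 h arrays were all above the others. The difference from 32 to 54 h was 1.05 ± 0.33 (SE, n = 3 arrays a group, limma adjusted p = 0.021), and 2 of the 54 h arrays sat at the upper limit of the deposited ratios, 100-fold. In the stage set it read 4.92, 4.53, 4.63 and 4.73 in fertilized eggs, 6.15, 6.64, 6.61 and 6.41 at 2-cell, with 2 arrays at the limit, and 4.68, 6.44, 5.73 and 4.96 at 4-cell. Values at the limit are lower bounds. The call from 32 to 54 h was lost without the second 32 h array and without the first or second 54 h array. Lrfn5 and Fgf10 also had values at the limit in the stage set and Hif1a in the treatment set, which was noted after their values were seen.

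**Figure D3:**
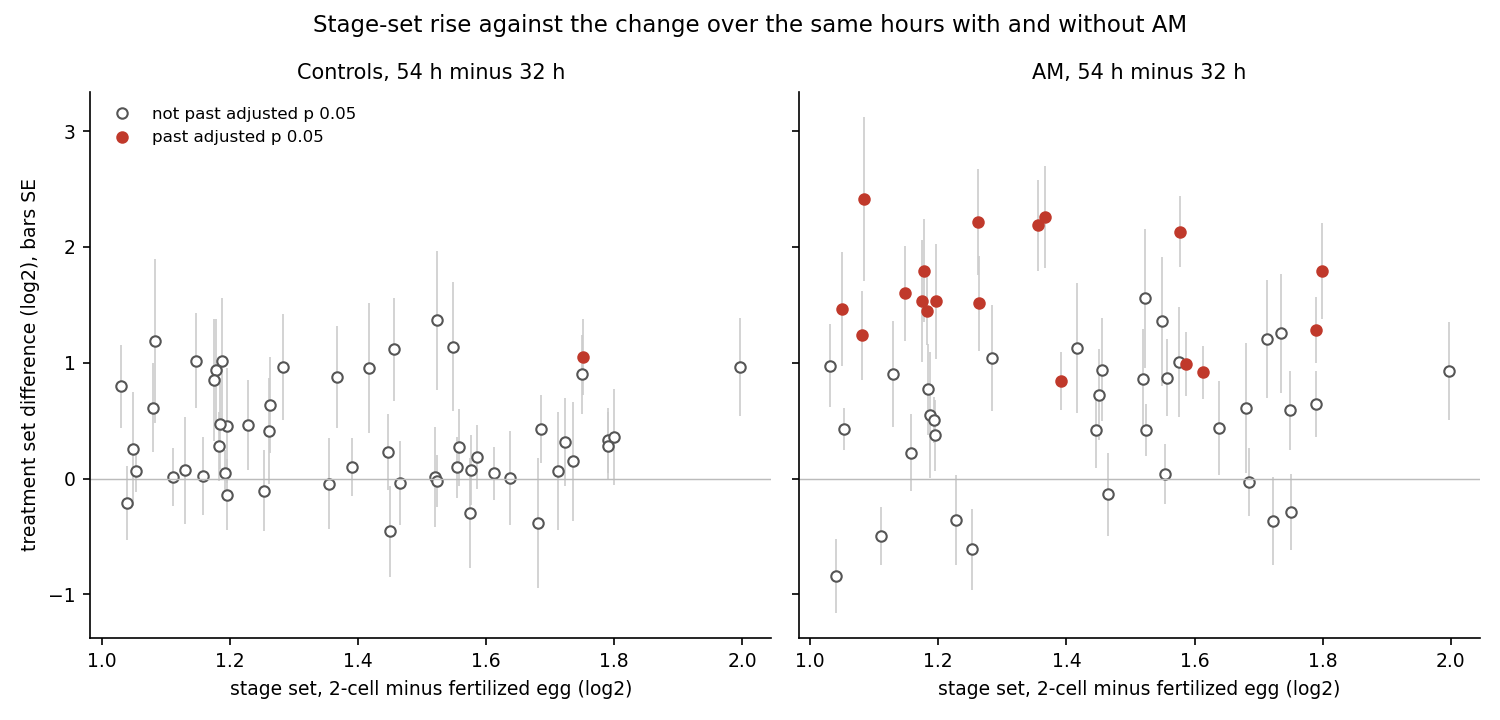
Rise from fertilized egg to 2-cell in the stage set (x axis, log2) against the 54 h minus 32 h difference in the treatment set (y axis, log2, bars SE from limma) for the 53 members, in controls (left) and with AM (right); red points passed an adjusted p of 0.05. The x axis holds the values that chose the members. In controls 1 member passed, with a median difference of 0.28, and with AM 18 passed.

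Among genes listed as 2-cell markers, a list drawn up with earlier results of these data known, 9 of 51 were named in the table, with 13 probes. From 32 to 54 h in controls Obox3 rose by 2.95 ± 0.61, Cdkn1a by 2.22 ± 0.31, Rbm5 by 1.05 ± 0.38, Dppa4 by 0.94 ± 0.24 and Kdm5b by 0.88 ± 0.32 (SE, n = 3, limma adjusted p = 0.00084, 8.2e-06, 0.047, 0.0047 and 0.048). Dppa2 (0.28) was not called, and 1 Eif1ax probe fell by 1.21 (adjusted p = 0.029) while the other, at -0.25, was not called. Hspa8 had group means between -6.61 and -6.17 throughout the treatment set, at the bottom of the scale, so its difference is not read. The 4 probes of Sptbn1 disagreed, with differences of -3.18, -2.11, 0.87 and 1.19, of which the first 2 were called lower and the third higher. Apart from Sptbn1, 5 of the other 8 genes, Hspa8 counted among the 8, were higher, where 11.3% of all probes were. The list was drawn up with results known, so this count is a description and not a test. In the stage set the means at 2-cell and then 4-cell were -1.09 and -0.25 for Obox3 and -1.45 and -0.89 for Cdkn1a. They were 1.60 and 1.46 for Rbm5, 3.39 and 3.65 for Dppa4 and 1.32 and 1.71 for Kdm5b. Among these genes only Rbm5 was lower at 4-cell than at 2-cell, by less than the rule asks.

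AM asks which members depend on polymerase II. At 32 h 0 of 53 members were called, with 0% of probes called in either direction, and the median member difference from control was -0.24. At 43 h 0 were called, again with 0% of probes, and the median was -0.32, with 43 of 53 differences below 0. At an unadjusted p under 0.05 there were 6 and 4 members at these times, and 475 and 982 of 22575 probes. At 54 h 0 members were called higher and 2 lower, where 2.12% of probes were called higher and 4.34% lower. At an unadjusted p under 0.05 there were 10 members, and 4311 of 22575 probes. The median had the other sign, at 0.32 against 0.02 over all probes, and 42 of 53 differences were above 0. Without 1 array the members' median at 54 h lay between 0.10 and 0.48, lowest without AM replicate 3. Members vary together over the treatment arrays, with a median pairwise correlation of 0.48, so the counts by sign are not counts of independent genes. Such counts were not made over all probes. No member was called in the test of whether the response at 54 h differed from that at 43 h. Of all probes 0% were higher and 0.0797% lower there. An unadjusted p of 0.05 was passed by 8 members, and by 2264 of 22575 probes. Of the 13 probes of 2-cell markers, Cdkn1a was lower with AM at 54 h, by -1.08, and 1 probe each of Eif1ax and Sptbn1 was higher, by 1.16 and 1.52 (limma adjusted p = 0.03, 0.027 and 0.0057). The other probes were not called, Obox3 with a difference of -1.06 (adjusted p = 0.37).

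The members lower with AM at 54 h were Tmtc3 and Plxna3. Tmtc3, an O-mannosyltransferase of the endoplasmic reticulum, read 3.08, 2.95 and 2.73 in the controls and 2.45, 1.41 and 1.71 with AM, a difference of -1.06 ± 0.32 (SE, n = 3, limma adjusted p = 0.043). Plxna3 read 2.76, 2.53 and 2.57 in controls and 2.29, 1.75 and 1.23 with AM, a difference of -0.86 ± 0.25 (adjusted p = 0.037). The groups did not overlap for either gene. Mindy3 was -1.0 ± 0.35 with AM and was not called (adjusted p = 0.091). Both calls were lost in the values as deposited, after median centring and without any 1 of the 3 control arrays or AM replicate 2 or 3 at 54 h, whereas 4 members were called lower without the first AM array. They were also lost without 4 arrays, replicate 3 of AM at 32 h, AM at 54 h, AC at 32 h and DMSO at 32 h, that hold between 5 and 156 features at the upper limit, where the other treatment arrays hold between 298 and 415.

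The AM groups were also compared with each other over time, which was decided once the results above were known. From 32 to 54 h with AM 18 members were called higher and 0 lower, where 9.6% of probes were called higher and 9.39% lower. The median member difference was 0.92, against 0.05 over all probes. At an unadjusted p under 0.05 there were 32 members, and 7587 of 22575 probes. All 3 arrays at 54 h were above all 3 at 32 h for 30 members, but the share over all probes was not counted. Those called included Sptbn1 at 2.42 ± 0.71, Myl9 at 2.26 ± 0.44, Rep15 at 2.22 ± 0.46, Ppig at 2.19 ± 0.39 and Ubr4 at 2.13 ± 0.30 (SE, n = 3, limma adjusted p = 0.018, 0.00079, 0.0014, 0.00037 and 2.6e-05). Wars2, Etnk1, Airn, Galnt7, Csf1, Dennd1b, Efr3a, Grk6, Nsmce2, Limd1, Tfrc, Kpna6 and Myo1d, between 0.84 and 1.79, were the others. For Sptbn1 2 other probes went the other way over the same step, by -1.51 and -1.84. Without the 4 arrays of low limit counts named above the count was 11. It was 10 without the first 32 h AM array, 11 without the second, and 9 without the third 54 h AM array. From 32 to 43 h with AM only Ppig and Ubr4 were called higher and 0 members lower, against 0.828% of probes higher and 2.58% lower.

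At their member probes, Ppig and Ubr4 also passed the test of the difference between the AM step and the control step. There 0.341% of all probes were higher and 1.13% lower. Under AM, Ubr4 read 1.24, 1.82 and 2.28 at the 32 h time, rose to 2.52, 2.87 and 3.46 by 43 h and reached 3.75, 3.39 and 4.60 by 54 h. In controls it read 3.16, 2.71 and 2.77 at 32 h and 3.07, 2.90 and 2.89 at 54 h. AM arrays were thus below the controls at 32 h and above them at 54 h, and the steps differed by 2.06 ± 0.43 (SE, limma adjusted p = 0.015). Ppig read 1.94, 2.35 and 2.30 with AM at 32 h and 4.15, 4.17 and 4.83 at 54 h, against 3.77, 3.21 and 3.27 and 3.60, 3.42 and 3.11 in controls. Its steps differed by 2.23 ± 0.56 (adjusted p = 0.038). Both calls were lost in the values as deposited and after median centring. They were also lost without the first 32 h control, the second 54 h control or the first 32 h AM array, and 1 of the 2 was left without any of 7 others.

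Translation inhibition was measured at 43 h only. Against the untreated control 0 members were called higher with CHX and 2 lower, where 0.992% of probes were higher and 1.26% lower, and the median was 0.12. This median depended on the scaling, at 0.66 in the values as deposited and 0.56 after each array was centred on its median. Tmtc3 read 2.98, 2.57 and 3.04 in controls and 1.18, 0.89 and 1.47 with CHX, a difference of -1.68 ± 0.32 (SE, n = 3, limma adjusted p = 0.0043). Mindy3 read 4.08, 3.45 and 4.02 in controls and 2.24, 2.14 and 2.67 with CHX, a difference of -1.50 ± 0.35 (adjusted p = 0.02). The groups did not overlap for either. Both calls were lost in the values as deposited, and 1 was left without control replicate 1 or 3 or without CHX replicate 2 or 3. The DMSO embryos at 43 h were also low: Tmtc3 read 1.11, 1.98 and 1.84 and Mindy3 2.1, 2.82 and 2.64 there. DMSO differed from the untreated control by -1.22 ± 0.32 for Tmtc3 and -1.33 ± 0.35 for Mindy3, neither called (adjusted p = 0.32 for each).

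Set against DMSO at 43 h, a further test chosen once the DMSO values had been seen, CHX left 0 members called, where 1.59% of probes were higher and 2.64% lower. Tmtc3 differed by -0.46 (95% interval from -1.12 to 0.19) and Mindy3 by -0.17 (from -0.89 to 0.55). The labels do not say whether CHX was given in DMSO. Set against AM at 43 h 0 members were called, where 0.447% of probes were higher and 1.1% lower, and the median was 0.42. An unadjusted p of 0.05 was passed by 8 members, and by 2636 of 22575 probes. DMSO against untreated controls at 43 h called 0 members and 0% of probes, with a median of -0.20. There 6 members had an unadjusted p under 0.05, and 1655 of 22575 probes did.

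AC, the replication inhibitor, was compared with DMSO. The DMSO arrays at 32 h had member medians of 1.02, 1.89 and 1.93, all below the 2.39 to 2.76 of the untreated arrays at that time. At 32 h 0 members and 0% of probes were called, and the member median was 0.29. An unadjusted p of 0.05 was passed by 0 members, and by 424 of 22575 probes. At 43 h 0 members were called, where 0.133% of probes were higher and 0.0709% lower, with a median of 0.27. There 6 members had an unadjusted p under 0.05, and 2844 of 22575 probes did. The AC arrays at 43 h were far apart: their member medians were 2.12, 2.95 and 2.59, and without the first of them 4 members were called higher. Both Tmtc3 and Mindy3 were low in every AC array at 43 h, at 1.19, 0.68 and 1.15 and at 1.83, 2.08 and 2.23.

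**Figure D4:**
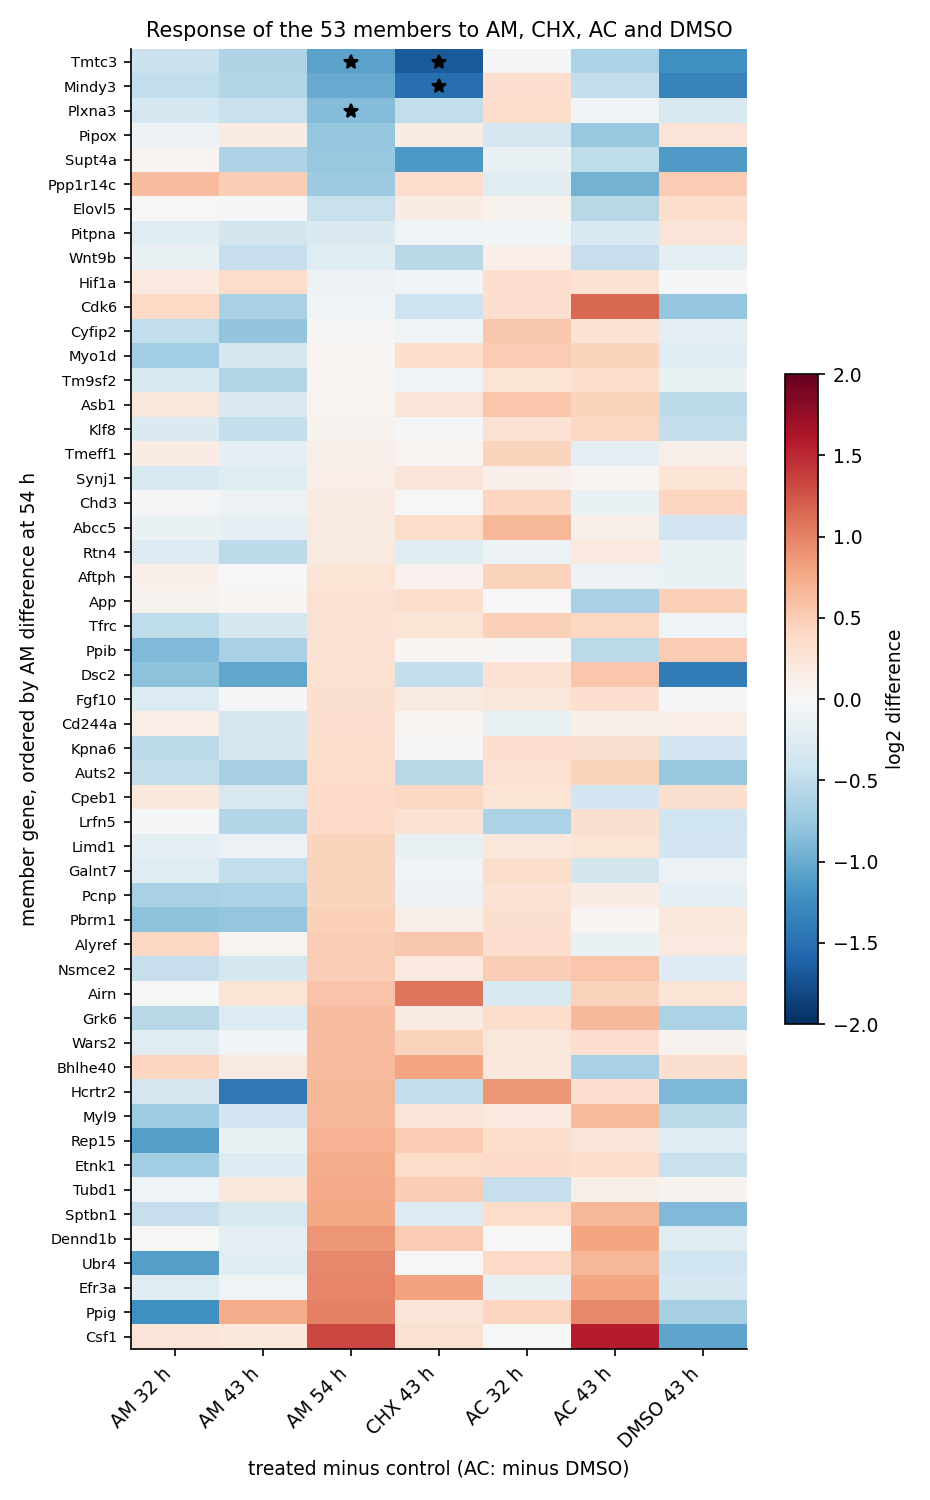
Differences from the matched control for the 53 members (rows) in the treatment set (log2, colour scale), with members ordered by the AM difference at 54 h and stars on those past a limma adjusted p of 0.05. Stars stand on Tmtc3 and Plxna3 for AM at 54 h and on Tmtc3 and Mindy3 for CHX at 43 h. Most members lie below 0 with AM at 43 h and above 0 with AM at 54 h, but members vary together over these arrays and are not independent.

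Mindy3, Supt4a, Tmtc3 and Plxna3, grouped after their values were seen, ran together over the 36 treatment arrays. Their 6 pairwise correlations lay between 0.74 and 0.97, and their correlations with the other members had a median of 0.23. Supt4a read 3.64, 2.85 and 3.42 in the 43 h controls, 2.11, 1.86 and 2.49 with CHX and 1.71, 2.61 and 2.20 with DMSO, so it was low in the same groups, without a call. The median correlation over all pairs of members was 0.48, and that over all 1-symbol probes was 0.00. Myl9 (0.71), Rep15 (0.69), Wars2 (0.66) and Tmeff1 (0.66) had the highest median correlation with the other members, and Cd244a (0.13) and Tmtc3 (0.13) the lowest. These arrays share their reference and their groups, and the correlations are a description.

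**Figure D5:**
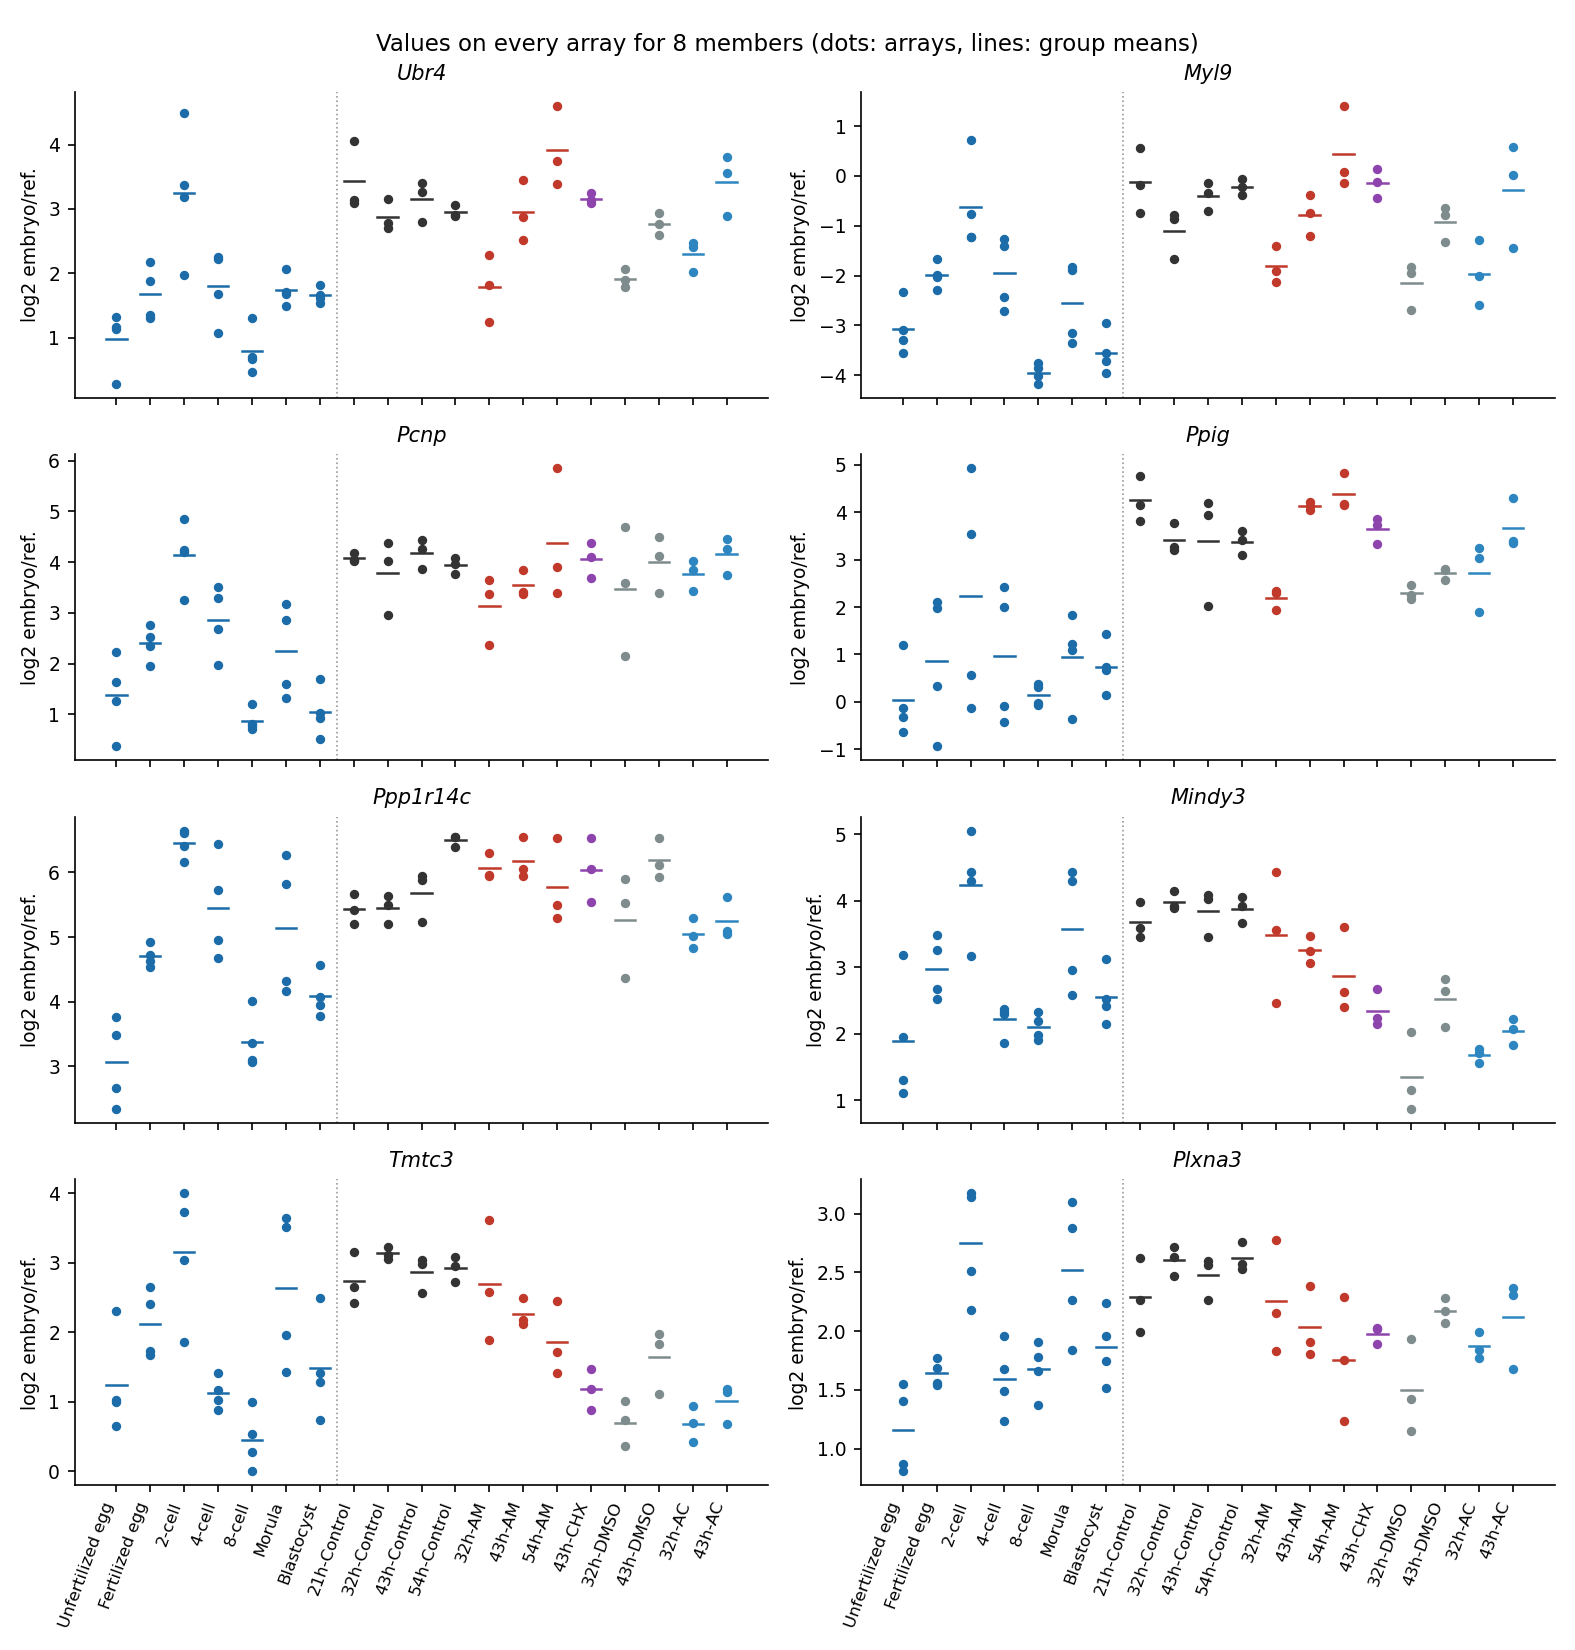
Values on each array (log2 embryo over reference; dots are arrays, lines are group means) for 8 members, with the stage set left of the dotted line and the treatment set to its right. Ubr4, Myl9 and Ppig have their highest group mean of the treatment set in AM at 54 h, while Mindy3 and Tmtc3 are low in the CHX, DMSO and AC groups, and the 2-cell arrays spread widely for Ppig.

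Among the later stages, which the rule did not use, the morula stood above the 8-cell stage. Against 8-cell embryos 8 members were called higher and 0 lower, where 3.51% of probes were higher and 1.55% lower, with a median of 0.82. Tmtc3 rose by 2.18 ± 0.48 (SE, n = 4, limma adjusted p = 0.023), from 1.00, 0.00, 0.54 and 0.28 to 3.65, 3.51, 1.96 and 1.43. Ppp1r14c rose by 1.76 ± 0.41 (adjusted p = 0.024), Mindy3 by 1.47 ± 0.43, Myl9 by 1.39 ± 0.41, Wnt9b by 1.34 ± 0.34, Pbrm1 by 1.25 ± 0.31, Chd3 by 1.2 ± 0.34 and Pitpna by 1.09 ± 0.33. The first and second morula arrays lie in 1 of 2 parts into which the stage arrays fell in an earlier look at these data, and all 8-cell arrays lie in the other. The labels do not name these parts. With the part as a block 0 members were called and the median was 0.42, and in the fit of these groups alone it was also 0. Leaving out replicate 2, 3 or 4 at 8-cell or morula replicate 1 or 2 gave 0, and leaving out morula replicate 3 or 4 gave 15 and 16. These later morula replicates, which share the part of the 8-cell arrays, had member medians of 1.17 and 1.15, against 0.37 to 0.84 at 8-cell and 1.76 and 1.62 in the other morula arrays.

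Blastocysts and 8-cell embryos lie in the same part. Between them 0 members were called, where 3.65% of probes were higher and 0.337% lower, and the median was 0.12. In this comparison 4 members had an unadjusted p under 0.05, and 2589 of 22575 probes did. Between 8-cell embryos and unfertilized eggs 0 members were called higher and 2 lower, where 21.6% of probes were higher and 13.9% lower. These were Efr3a, a scaffold of the plasma membrane phosphoinositide kinase, at -1.30 ± 0.44, and Tm9sf2, an endosomal and Golgi protein, at -0.94 ± 0.34 (SE, n = 4, limma adjusted p = 0.021 and 0.03). The members' median difference was -0.12, with quartiles of -0.39 and 0.16. With the part as a block the median turned to 0.46, and 5 members were called higher and 0 lower. Without any 1 of the 4 arrays at 8-cell or the third unfertilized egg array 1 member was called lower, and without the first or second unfertilized egg array 0 were.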

How the data were processed

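Total RNA of mouse eggs and embryos was measured on 64 arrays of 2 colours, 28 in the stage set and 36 in the treatment set. The authors deposited 1 table of log10 ratios for 22575 probes, held between limits of 100-fold in each direction, with 1.47% of values at a limit. The base was read from those limits, and the dye of each channel, the background correction and the within-array normalization remain unknown because the sources used here do not give them. No scanner output was used, so signal over background is unknown and the number of arrays limits the precision.

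From these values, log2 of embryo over reference was computed as the deposited value times 3.32 with the sign turned. The stage arrays were centred on their medians. The treatment arrays, whose medians differ more, were quantile-normalized and centred on the common median. Probes were named from the platform annotation: 4262 carry 1 symbol, 6822 several and 11491 none. All 53 member symbols were unchanged in the current RefSeq gene table.

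Each probe was tested with limma 3.58.1 in R 4.3.3 (lmFit, contrasts, eBayes) on all 22575 probes, with a mean per group, the sets fitted apart, and a call where the two-sided p, adjusted by Benjamini-Hochberg, was under 0.05. SEs and 95% intervals are from that fit, and SDs are not pooled. Tables were made with Python 3.11.15, pandas 2.3.3 and numpy 2.4.6, and the fit was tested on simulated data. Groups came from the labels alone. The alternatives were other scalings, the compared groups alone, a replicate block, the part of the stage arrays as a block, no probes at a limit, and each array left out.

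The members, gene lists and tests were chosen with earlier results of these data known. Genes named are the 25 members with the largest smaller-of-rise-and-fall, up to 5 called members per direction and comparison, members on a gene list, the 3 on each side of the thresholds, up to 4 examples per role, and up to 8 genes of the 2-cell marker list. Where all called members of a comparison are named beyond those 5, where values at a limit, the 4 genes that ran together or the likeness order are given, the choice was made after the values were seen.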

Additional observations from a re-analysis of the deposited data

Results flagged for a closer look

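Of 91 stage groups of 4 arrays checked, for 12 genes and for the members' median, 3 held an array far from the others by Dixon's test at the 95% level, where chance gives about 5%. Rep15 read -1.4361 on the first 8-cell array, the Cpeb1 value on the same array was 0.7017, and Mindy3 read 1.8628 on the first 4-cell array.

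The change from 32 to 54 h differed between AM and control embryos for Ubr4, by 2.0565 log2 units, and for Ppig, by 2.2314 log2 units, in a limma test of the difference itself.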

How the results depend on the processing

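The membership was the least stable result: 24 genes after quantile normalization, 485 with steps of 0.5 and 0 with steps of 1.5, and 21 to 178 when 1 array was left out. For the 54 h against 32 h controls, where 1 member was called higher, 2 were called in the values as deposited, 3 after median centring, 13 in the compared groups alone and 0 without probes at a limit, and 0 to 1 without 1 array. For AM at 54 h, 0 were lower in the values as deposited, after median centring, in the compared groups alone and without the 4 replicate 3 arrays with few values at the limit. Without 1 array 0 to 4 were lower and 0 to 2 higher. For CHX against control 0 were lower in the values as deposited and in the compared groups alone, 1 after median centring, and 1 to 2 without 1 array. AC against DMSO at 43 h gave 0 to 4 higher without 1 array. Morula against 8-cell gave 0 with the part as a block and in the compared groups alone, and 0 to 16 without 1 array. Blastocyst against 8-cell gave 2 higher after quantile normalization and 3 in the compared groups alone. For 8-cell against unfertilized eggs, 4 were lower after quantile normalization, 5 higher and 0 lower with the part as a block, 3 higher and 5 lower in the compared groups alone, and 0 to 2 lower without 1 array. For 54 h against 21 h controls the count was 0 in the values as deposited, after median centring and without probes at a limit, and 0 to 1 without 1 array. For 43 h against 32 h AM it was 1 in the values as deposited, after median centring and in the compared groups alone, and 1 to 2 without 1 array. For 54 h against 32 h AM it was 11 without the 4 replicate 3 arrays with few values at the limit, 9 to 20 higher and 0 to 2 lower without 1 array. The AM step against the control step gave 0 in the values as deposited and after median centring, 1 without the 4 replicate 3 arrays with few values at the limit and 0 to 2 without 1 array. The cause of these changes was not tested, and the shares of all probes called under the alternatives were not counted. Called members changed sign in 0 of 510 values, a count that also holds the main fit set against itself, where no change was possible.

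Replicate numbers were not taken to pair samples, since not every same-numbered pair deviated together: their correlations had a mean of 0.07 (-0.49 to 0.57) in the treatment set, against -0.03 for other pairs, and of -0.02 (-0.44 to 0.59) in the stage set, against 0.01. With a replicate block 0 members were called higher for 54 h against 21 h controls, 1 for CHX against DMSO at 43 h, 22 for 54 h against 32 h AM and 7 for morula against 8-cell, and the other counts were as without it.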
